A study of Mus musculus with 41 samples.

Results

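Fos, Jun, Junb and Fosl2 encode subunits of the transcription factor AP-1, and the AP-1 gene loci described here are 4 windows of the mouse genome (build mm9) laid around them by coordinate. The windows were chr12:86700000-86950000 for Fos, chr4:94600000-94850000 for Jun, chr8:87400000-87600000 for Junb and chr5:32330000-32600000 for Fosl2, 970 kb in all. A peak belonged to a locus when its centre lay in the window. Of the 155773 peaks in 8 deposited peak lists, 365 did: 102 at Fos, 84 at Jun, 101 at Junb and 78 at Fosl2. Here and below, a peak at a gene is a peak in its window, and none was assigned to the gene itself.

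The study asked where Runx2, a transcription factor required to make osteoblasts, sits on the chromatin of skeletal cells. Chromatin immunoprecipitation with sequencing (ChIP-seq) gave 1 list of peaks, stretches of DNA recovered more often than their surroundings, for each of 8 groups. Runx2 was precipitated through a FLAG tag from calvarial osteoblasts and from rib chondrocytes of C57BL/6 pups at postnatal day 1 that carried the Runx2-BioFL/+ knock-in, with 2 libraries behind each list. Jun was precipitated from wild-type C57BL/6 osteoblasts of the same bone and age. Foxa2, a forkhead factor, was precipitated from wild-type C57BL/6 rib chondrocytes, also at postnatal day 1. Each of these lists had 1 library. The other lists came from 3T3 mouse fibroblasts that overexpressed Runx2BioFL or, as the control for the FLAG precipitation, green fluorescent protein (GFP). They were sampled at day 3 and at day 0 of osteogenic medium, with 1 library each. The medium adds rhBMP-2 at 100 ng/ml, ascorbic acid phosphate and β-glycerophosphate, which the labels give for the day 3 samples alone. Day and additives thus cannot be told apart. Bone of origin and cell type cannot be told apart, since the osteoblasts came from calvaria and the chondrocytes from rib. The labels name no promoter for the 3T3 constructs and do not say how many animals were pooled, and peak lists hold no expression values against which the cell types could be checked.

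The labels of 2 of the 4 lists of 3T3 cells were crossed. The list named for Runx2 day 0 was tied to the sample of GFP day 3, and the list named for GFP day 3 to the sample of Runx2 day 0. Both are used here under their own names. Exchanging them swaps their counts and densities, and the ratios, overlap shares and shares of sites that compare them are also given with the lists exchanged. Because each group has 1 list and no depth is given, no value has a replicate error and no list was tested against another. Intervals are at the 95% level and reflect the counting error alone, although peaks next to each other can depend on each other. A peak in a list from many cells does not show what share of the cells carried it.

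AP-1 is a dimer of a Fos-family protein with a Jun-family protein, or of a pair of Jun-family proteins, held together by a leucine zipper. It binds a short palindrome, TGANTCA, or the related pattern TGACNTCA, which includes the cyclic-AMP response element. Many AP-1 subunit genes are switched on within minutes of a growth signal. Fos is needed in mice to form osteoclasts, Fosl2 (Fra-2) takes part in osteoblast maturation and collagen production, Jun is the subunit precipitated in this study, and Junb is a close relative of Jun that can limit its activity. The genes of AP-1 subunits are known to be regulated in part by AP-1 itself.

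The 250 bases upstream of each start site are shown as the sequence from which each gene is switched on, as RefSeq gives them on build GRCm38.p6. They lie at chr12:85473640-85473889 (Fos, plus strand), chr4:95052223-95052472 (Jun, minus strand), chr8:84978749-84978998 (Junb, minus strand) and chr5:32136222-32136471 (Fosl2, plus strand). These positions cannot be set against the mm9 peaks, so whether a peak covers a promoter was not analysed here. Each is written 5′ to 3′ on the strand of its gene, with motif matches in capitals.
Fos: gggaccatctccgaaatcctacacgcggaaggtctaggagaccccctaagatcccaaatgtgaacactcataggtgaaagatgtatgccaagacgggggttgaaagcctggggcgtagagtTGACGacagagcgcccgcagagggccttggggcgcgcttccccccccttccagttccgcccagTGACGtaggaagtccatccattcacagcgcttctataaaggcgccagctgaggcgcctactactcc
Jun: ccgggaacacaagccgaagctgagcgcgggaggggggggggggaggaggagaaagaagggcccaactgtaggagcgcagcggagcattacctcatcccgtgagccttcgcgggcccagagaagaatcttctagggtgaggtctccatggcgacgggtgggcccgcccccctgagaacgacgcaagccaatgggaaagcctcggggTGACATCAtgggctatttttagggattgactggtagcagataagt
Junb: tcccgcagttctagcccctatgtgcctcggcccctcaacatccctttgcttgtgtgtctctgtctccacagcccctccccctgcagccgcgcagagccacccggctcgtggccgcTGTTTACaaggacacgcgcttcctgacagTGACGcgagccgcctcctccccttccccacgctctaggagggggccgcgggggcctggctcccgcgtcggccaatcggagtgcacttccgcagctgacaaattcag
Fosl2: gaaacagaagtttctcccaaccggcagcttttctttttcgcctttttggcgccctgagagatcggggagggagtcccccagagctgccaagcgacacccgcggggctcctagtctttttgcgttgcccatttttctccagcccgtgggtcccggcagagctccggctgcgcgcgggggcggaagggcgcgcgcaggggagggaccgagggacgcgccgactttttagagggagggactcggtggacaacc

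Both strands were searched for the AP-1 palindrome TGANTCA, for the wider pattern TGACNTCA and for TGACG, the first part of the cyclic-AMP response element. The other motifs were the core of the RUNX motif, TGTGGT, and a forkhead motif, TGTTTAC. The Jun promoter held 1 TGACNTCA match, TGACATCA, from 45 to 38 bp upstream of the start. The Fos promoter held TGACG at 129 to 125 bp and at 66 to 62 bp upstream. At Junb, TGACG lay 106 to 102 bp and TGTTTAC 135 to 129 bp upstream. No motif of the set was matched at Fosl2, and neither TGANTCA nor TGTGGT in any of the 4. None of the TGACG matches lay inside a TGACNTCA match. Of 32851 mouse promoters of the same length, 6.75% held TGANTCA, 7.49% TGACNTCA, 17.8% TGACG, 14.0% TGTGGT and 3.17% TGTTTAC. The GC content was 58.4% at Fos, 61.2% at Jun, 66.4% at Junb and 64.4% at Fosl2.

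In the gene order of GRCm38.p6 the nearest protein-coding neighbours of Fos are Nek9 and Tmed10 on one side and Jdp2 and Batf on the other. Jdp2 and Batf belong to the wider AP-1 family. Jun lies between Mysm1 and Fggy, Junb between Prdx2 and Hook2, and Fosl2 between Babam2 and Plb1. Which of these genes share the mm9 windows was not analysed here, and the same holds for windows around Fosb, Fosl1, Jund, Atf3, Batf, Batf3 and Jdp2, the other AP-1 genes.

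Over the 4 windows as a whole, all 8 lists were denser than elsewhere in the genome. Jun had 53.6 peaks per Mb in the windows and 5.64 elsewhere, a ratio of 9.50 (exact Poisson interval 7.10 to 12.5). Runx2 had 22.7 per Mb in the windows and 3.87 elsewhere in osteoblasts, a ratio of 5.86 (3.67 to 8.87). In chondrocytes Runx2 had 30.9 in the windows and 5.82 elsewhere, a ratio of 5.31 (3.58 to 7.58). Foxa2 had the lowest ratio of the 8 lists, 2.96 (1.69 to 4.80), with 16.5 per Mb in the windows and 5.58 elsewhere.

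The 3T3 lists were denser in the windows as well, and this included both GFP controls. The ratio was 6.47 for Runx2 day 3 (5.36 to 7.74), with 123 peaks per Mb in the windows and 19.0 elsewhere. For the list named for Runx2 day 0 it was 6.42 (5.03 to 8.07), with 75.3 in the windows and 11.7 elsewhere. For the list named for GFP day 3 it was 6.65 (4.78 to 9.03), with 42.3 in the windows and 6.35 elsewhere. GFP day 0 had the highest ratio of the 8 lists, 13.3 (6.85 to 23.1), with 12.4 in the windows and 0.934 elsewhere, from 12 peaks. The excess of 3T3 Runx2 peaks at these genes was thus accompanied by an excess in the controls, which carry no tagged Runx2, with intervals that overlap. By list name the ratios of the controls were as high or higher. With the crossed lists exchanged GFP day 3 had 6.42, just below the 6.47 of Runx2 day 3. What part of the Runx2 peaks here is shared background of the FLAG precipitation was not tested beyond the overlaps given further on.

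**Figure D1:**
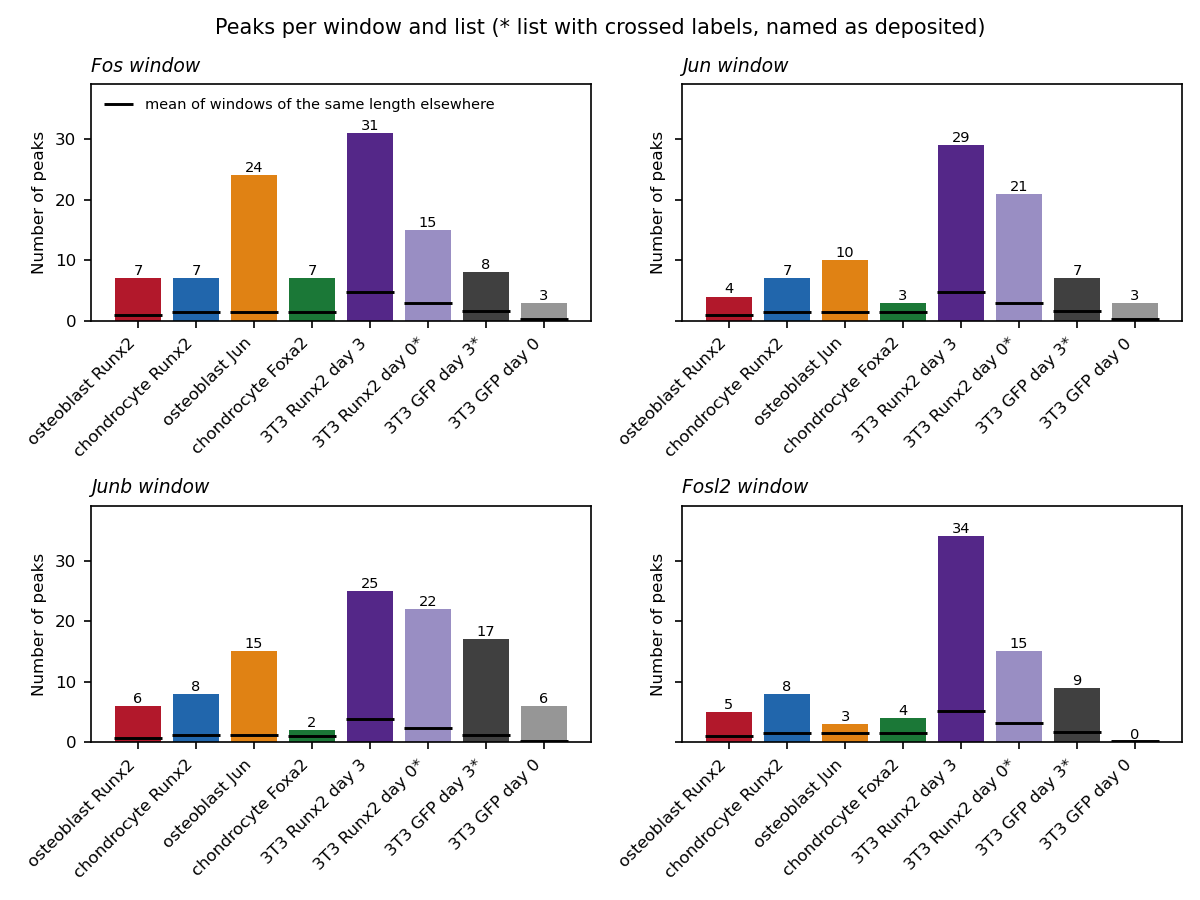
Number of peaks (vertical axis) of each of the 8 lists in the windows of Fos, Jun, Junb and Fosl2, with a black line at the mean of windows of the same length elsewhere in the genome. Jun peaks number 24 at Fos and 3 at Fosl2, while Runx2 day 3 of 3T3 cells has between 25 and 34 in each window.

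Each window was then set against all windows of its length that tile the rest of the genome. Over all lists Fos had 102 peaks, a number reached by 0.645% of 10540 windows, and Junb had 101, reached by 0.250% of 13179. Jun had 84, reached by 1.51% of 10540 windows, and Fosl2 had 78, reached by 2.43% of 9758. The median such window held between 4 and 6 peaks of all lists.

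The list of Jun itself differed widely between the genes. It had 24 peaks in the window of Fos, a partner of Jun in AP-1, and 0.0285% of windows elsewhere had as many or more. Junb had 15 Jun peaks (0.0835% of windows) and the Jun gene 10 (1.61%). Fosl2 had 3, a number that 22.1% of windows reached. The mean over windows elsewhere was 1.41 for the length of Fos and Jun, 1.13 for that of Junb and 1.52 for that of Fosl2. Jun peaks were thus above the mean at all 4 genes, by far less at Fosl2 than at the others.

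Runx2 of the primary cells was spread more evenly over the genes. In osteoblasts it had 7 peaks at Fos (1.85% of windows had as many or more), 4 at Jun (8.37%), 6 at Junb (1.84%) and 5 at Fosl2 (5.77%). In chondrocytes it had 7 at Fos (4.23%), 7 at Jun (4.23%), 8 at Junb (1.47%) and 8 at Fosl2 (3.15%). The osteoblast count over the chondrocyte count was 1.00 at Fos, 0.571 at Jun, 0.75 at Junb and 0.625 at Fosl2, against 0.665 for the whole lists. In osteoblasts there were 3.43 Jun peaks for each Runx2 peak at Fos, 2.50 at Jun, 2.50 at Junb and 0.600 at Fosl2, with 1.46 for the whole lists.

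Over the 4 windows together Foxa2, a factor of maturing chondrocytes, had fewer peaks than either primary Runx2 list or Jun. It was still denser there than elsewhere. At Fos it had as many peaks as each primary Runx2 list, and at Fosl2 more than Jun. It had 7 at Fos, a number reached by 3.13% of windows, 3 at Jun (20.1%), 2 at Junb (26.3%) and 4 at Fosl2 (14.3%). Fos thus held 7 of its 16 peaks, and in the other windows its counts were reached by over 10% of windows elsewhere.

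In 3T3 cells with tagged Runx2 at day 3, the 4 genes had similar counts: 31 at Fos (1.38% of windows), 29 at Jun (1.70%), 25 at Junb (1.53%) and 34 at Fosl2 (1.12%). The list named for Runx2 day 0 had 15 at Fos (3.88%), 21 at Jun (1.31%), 22 at Junb (0.470%) and 15 at Fosl2 (4.64%). The list named for GFP day 3 had 8 at Fos (4.94%), 7 at Jun (6.62%), 17 at Junb (0.296%) and 9 at Fosl2 (4.11%). GFP day 0 had 3 at Fos (2.18%), 3 at Jun (2.18%), 6 at Junb (0.106%) and 0 at Fosl2, where the share of windows with as many is 100% by construction. The GFP lists thus had their highest counts at Junb, and Fosl2 had no peak of GFP day 0.

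By these names the ratio of Runx2 to GFP peaks was lowest at Junb on both days, which did not hold at day 0 with the crossed lists exchanged. Runx2 day 3 over GFP day 3 was 3.88 at Fos, 4.14 at Jun, 1.47 at Junb and 3.78 at Fosl2, with 2.99 for the whole lists. Runx2 day 0 over GFP day 0 was 5.00 at Fos, 7.0 at Jun and 3.67 at Junb, with 12.5 for the whole lists. No ratio is given at Fosl2, where 15 peaks stood against 0. With the crossed lists exchanged, Runx2 over GFP at day 3 was 2.07 at Fos, 1.38 at Jun, 1.14 at Junb and 2.27 at Fosl2, with 1.62 for the whole lists. At day 0 it was then 2.67 at Fos, 2.33 at Jun and 2.83 at Junb, with 6.79 for the whole lists, so that Junb had the highest of the 3 ratios. Between the days of Runx2, day 3 over day 0 was by name 2.07 at Fos, 1.38 at Jun, 1.14 at Junb and 2.27 at Fosl2, with 1.62 for the whole lists, and with the lists exchanged 3.88 at Fos, 4.14 at Jun, 1.47 at Junb and 3.78 at Fosl2, with 2.99 for the whole lists. Each list has its own size, and the number of reads behind it is not given.

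**Figure D2:**
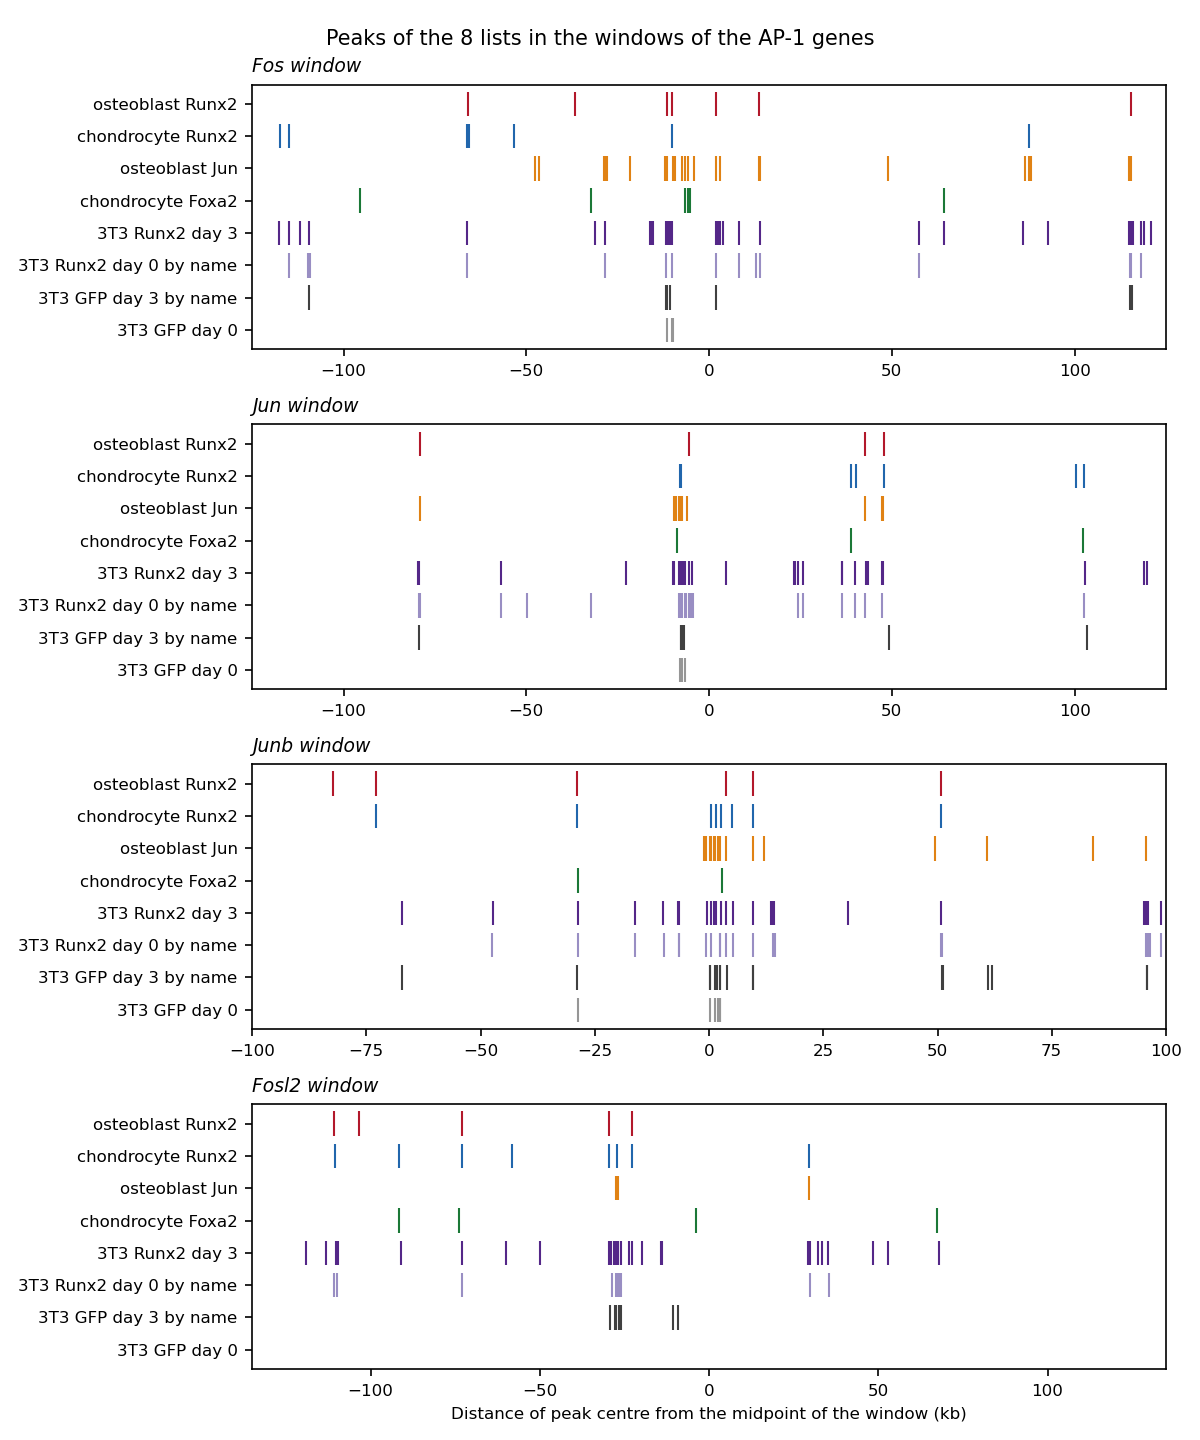
Each bar marks the centre of a peak by its distance from the midpoint of the window in kb (horizontal axis), with 1 row for each of the 8 lists and 1 panel for each gene. Peaks crowd into a stretch close to the midpoint at Fos, Jun and Junb and at about -27 kb at Fosl2, and the right part of the Fosl2 window is empty.

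Within the windows the peaks were not spread evenly. The densest 10 kb, chosen after the values were seen, held 28 of 102 peaks at Fos (27.5% in 4.0% of the window) and 36 of 84 at Jun (42.9% in 4.0%). It held 43 of 101 at Junb (42.6% in 5.00%) and 40 of 78 at Fosl2 (51.3% in 3.70%). These stretches ran from 86809689 to 86819831 at Fos, from 94714959 to 94720737 at Jun, from 87499922 to 87509751 at Junb and from 32435343 to 32445406 at Fosl2. All 8 lists had peaks in those of Fos, Jun and Junb, whereas that of Fosl2 had none of Foxa2 or GFP day 0. The longest stretch without a peak of any list was 66.9 kb at Fosl2 (32533111 to 32599999), 51.2 kb at Jun (94774160 to 94825365), 35.0 kb at Fos (86838962 to 86873960) and 21.7 kb at Junb (87562241 to 87583934).

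To compare places rather than peaks, the peaks of all lists that overlapped by at least 1 bp were merged into sites. This gave 82629 sites in the genome and 158 in the windows, 55 at Fos, 35 at Jun, 36 at Junb and 32 at Fosl2. Peaks of a site may be linked through another and need not overlap each other. Of the sites at these genes, 92 (58.2%, Wilson interval 50.4 to 65.6%) came from 1 list only, against 61.1% in the genome. Sites in 5 or more lists numbered 14 (8.86%, 5.35 to 14.3%), against 4.22% in the genome, with 6 at Junb, 4 at Fos, 2 at Jun and 2 at Fosl2. One site was in 7 lists (0.633%, 0.112 to 3.50%), against 0.266% of genomic sites in 7 or more, and none in all 8. With the GFP lists left out, 2 sites were in 5 or more of the remaining lists. This is a stricter criterion, since fewer lists can count, and the share in the genome was not computed for it.

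**Figure D3:**
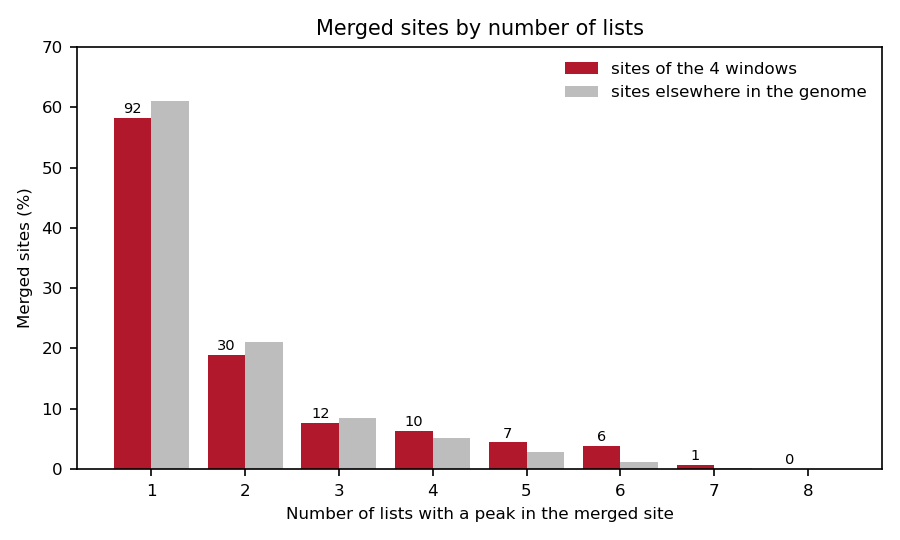
Share of merged sites in % (vertical axis) by the number of lists with a peak in the site (horizontal axis), in the 4 windows and elsewhere in the genome; the number on each bar counts the sites of the windows. Sites of 5 or 6 lists take a larger share in the windows, with 7 and 6 sites, than elsewhere.

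The share of a list's sites that no other list had was near its share in the genome for Runx2 day 3, the list named for Runx2 day 0 and Jun. It was lower than in the genome for the other lists. Runx2 day 3 of 3T3 cells was alone at 42 of its 99 sites (42.4%, 33.2 to 52.3%), against 41.8% in the genome, with 16 at Fosl2, 14 at Fos, 8 at Jun and 4 at Junb. Jun was alone at 18 of 46 (39.1%, 26.4 to 53.5%), against 42.6%, with 12 at Fos, 4 at Junb, 2 at Jun and 0 at Fosl2. Foxa2 was alone at 9 of 16 (56.2%, 33.2 to 76.9%), against 73.0%. All of these intervals cover the share in the genome. Osteoblast Runx2 was alone at 3 of 22 sites (13.6%, 4.75 to 33.3%), against 22.0%, and chondrocyte Runx2 at 4 of 29 (13.8%, 5.50 to 30.6%), against 21.4%. The list named for Runx2 day 0 was alone at 7 of 56 (12.5%, 6.19 to 23.6%), against 12.3%, and the list named for GFP day 3 at 9 of 29 (31.0%, 17.3 to 49.2%), against 43.2%. GFP day 0 was alone at 0 of 9 (0 to 29.9%), against 13.9%. These intervals, too, cover the share in the genome.

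At Fos the crowded stretch held 2 of the sites with the most lists. The site at chr12:86813126-86813601 had peaks of osteoblast Runx2, Jun, Runx2 day 3 and the list named for Runx2 day 0, and of both GFP lists. The site at chr12:86814730-86815251 had peaks of osteoblast and chondrocyte Runx2, Jun, Runx2 day 3, the list named for Runx2 day 0 and GFP day 0. They were 2 of the 5 sites at Fos where osteoblast Runx2 and Jun met. The others were chr12:86826785-86827110 with 5 lists, chr12:86838533-86838961 with 4 and chr12:86939934-86940474 with 5. By list name, Runx2 of 3T3 cells was present at all of them, and GFP at 4 of the 5, the exception being chr12:86838533-86838961. With the crossed lists exchanged that site, too, had a GFP peak. Of the 7 osteoblast Runx2 peaks at Fos, 4 overlapped a Jun peak directly, and 2 of 7 overlapped a chondrocyte Runx2 peak.

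A second site at Fos joined the Runx2 lists of both primary cell types without Jun. It lay at chr12:86758747-86759098, at -66.1 kb from the midpoint of the window, and had peaks of all 4 Runx2 lists and of no other. The remaining 5 osteoblast sites had no chondrocyte Runx2, and 5 chondrocyte sites had no osteoblast Runx2.

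Fos was also the gene with the most Foxa2 peaks, and 4 of its 7 lay in 1 cluster. They were at the sites chr12:86818123-86818413, chr12:86819126-86819306, chr12:86819339-86819615 and chr12:86819665-86819831, between -6.7 and -5.3 kb from the midpoint. The first pair also had a Jun peak each, although Foxa2 was precipitated from chondrocytes and Jun from osteoblasts. The other Foxa2 sites at Fos were chr12:86729506-86729592, chr12:86792525-86792903, whose 379 bp made it the widest Foxa2 peak at these genes, and chr12:86889114-86889394, shared with Runx2 day 3. None of the 7 overlapped chondrocyte Runx2, against 19.2% of the whole Foxa2 list. Over the 4 genes 2 of 16 Foxa2 peaks overlapped a Jun peak (12.5%, 3.50 to 36.0%), against 1.87% of the whole Foxa2 list. Without Fos none did.

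Of the 22 sites with Jun at Fos, 16 had no Runx2 of the primary cells. Over the 4 genes 29 of 46 Jun sites had none (63.0%, 48.6 to 75.5%), against 68.9% of Jun sites in the genome, which the interval covers. Of the 24 Jun peaks at Fos, 4 overlapped osteoblast Runx2, 6 overlapped Runx2 day 3 and 3 overlapped the GFP list named for day 3. The widest Jun peak of the 4 windows, 488 bp at chr12:86778282-86778769, overlapped no other list. The widest peak of GFP day 0 (342 bp, chr12:86813244-86813585) and of the list named for Runx2 day 0 (498 bp, chr12:86715581-86716078) were at Fos too.

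At the Jun gene the site in the most lists was chr4:94716868-94717739, 872 bp long, with 14 peaks of 6 lists. It had 2 peaks of chondrocyte Runx2, 2 of Jun, 2 of Runx2 day 3, 3 of the list named for Runx2 day 0, 3 of the list named for GFP day 3 and 2 of GFP day 0. Osteoblast Runx2 and Foxa2 were absent from it. Its neighbour chr4:94717950-94718510 had peaks of the 3T3 lists alone, 3 of Runx2 day 3 and 1 of each other. Both sites with GFP day 0 at this gene were thus in the crowded stretch. The first Jun peak of the windows in file order, number 99 of the Jun list, was nearby at chr4:94718889-94718972 and overlapped no other list.

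Osteoblast Runx2 and Jun met at 3 sites of this gene, all outside the crowded stretch. The site chr4:94645204-94646019 lay at -79.4 kb from the midpoint and had 5 lists, including the widest peak of the list named for GFP day 3 (495 bp, chr4:94645433-94645927). The site chr4:94767558-94768026 was at 42.8 kb and also had Runx2 day 3 and the list named for Runx2 day 0. The site chr4:94772649-94772962, at 47.8 kb, had chondrocyte Runx2 and Runx2 day 3 as well and was the only site here with Runx2 of both primary cell types. Direct overlap with a Jun peak was found for 3 of 4 osteoblast Runx2 peaks, and with chondrocyte Runx2 for 1 of 4. Foxa2 had peaks at chr4:94716241-94716387, alone, and at chr4:94763630-94763877 and chr4:94827372-94828044, both with chondrocyte Runx2.

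Junb held the site of the windows that was in the most lists. It was chr8:87471196-87471403, 208 bp long and at -28.7 kb from the midpoint, with 1 peak of every list but Jun. It was the first of the windows in file order in 3 lists, as number 25 of osteoblast Runx2 (chr8:87471196-87471291), number 79 of chondrocyte Runx2 (chr8:87471201-87471283) and number 35 of GFP day 0 (chr8:87471197-87471355). How the lists are ordered is not given in the sources used here. Since both GFP lists had a peak there, the place was recovered in the FLAG precipitation without tagged Runx2 as well.

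The crowded stretch of Junb had the GFP peaks in its midst. The site chr8:87499922-87500576 had 6 lists and 8 peaks, chr8:87502144-87502628 had 6 lists and 9 peaks, and chr8:87501519-87502020 had 5 lists. Each had chondrocyte Runx2, Jun and both GFP lists, and none had osteoblast Runx2. The site chr8:87501075-87501479 had 2 peaks of Jun and 1 of each GFP list, with no Runx2 list. Over the 4 genes 11 of 30 sites with a GFP list had no Runx2 list (36.7%, 21.9 to 54.5%), 6 of them at Junb, against 49.0% in the genome. With the crossed lists exchanged it was 7 of 58 (12.1%, 5.97 to 22.9%), against 14.4%. Both intervals cover the share in the genome. The first peak of the list named for GFP day 3 in file order was here too (chr8:87502388-87502624, number 885).

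Osteoblast Runx2 met Jun at 2 sites of Junb and chondrocyte Runx2 at 4. The site chr8:87509508-87509744 was in both sets and had 6 lists, the 4 Runx2 lists, Jun and the GFP list named for day 3. The other with Jun, chr8:87503579-87503714, also had Runx2 day 3 and the list named for Runx2 day 0. The others with both primary Runx2 lists were chr8:87426989-87427194, which had no further list, chr8:87471196-87471403 and chr8:87550498-87550992 with 5 lists. The last held the widest osteoblast Runx2 peak of the windows (451 bp, chr8:87550498-87550948). The widest of chondrocyte Runx2 (453 bp, chr8:87504754-87505206) and of Runx2 day 3 (495 bp, chr8:87493050-87493544) were at Junb too. Foxa2 had 1 more peak here, the 48 bp at chr8:87502777-87502824, which overlapped no other list and was its first in file order (number 297).

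Most peaks at Fosl2 came from the Runx2 lists of 3T3 cells, with 34 of day 3 and 15 of the list named for day 0 among 78. A single site, chr5:32437131-32439198, was 2068 bp long and held 27 of the 78 peaks. It had 9 peaks of Runx2 day 3, 9 of the list named for Runx2 day 0, 6 of the list named for GFP day 3, 2 of Jun and 1 of chondrocyte Runx2. No peak of osteoblast Runx2, Foxa2 or GFP day 0 fell in it. Of the 82629 sites of the genome it was the only one with so many peaks (0.00121%), and also the only one with 9 or more of Runx2 day 3 (0.00121%), while 2 sites, this one included, were as long.

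Peaks of this site overlapped each other within the 3T3 lists, whereas the 2 of Jun were separate. The 9 of Runx2 day 3 formed 3 separate stretches, the 9 of the list named for Runx2 day 0 formed 3 and the 6 of the list named for GFP day 3 formed 2. Of the 9 peaks of Runx2 day 3, 8 were in the first 10% of the file, as were 5 of the 9 of the list named for Runx2 day 0 and 0 of the 6 of the list named for GFP day 3. It held the first peak of the windows in file order for Runx2 day 3 (chr5:32437863-32438055, number 456) and for the list named for Runx2 day 0 (chr5:32437884-32438092, number 361). One of its Jun peaks, chr5:32438159-32438283, was number 134 of the Jun list. How the count of peaks in such a stretch depends on the peak caller was not tested.

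**Figure D4:**
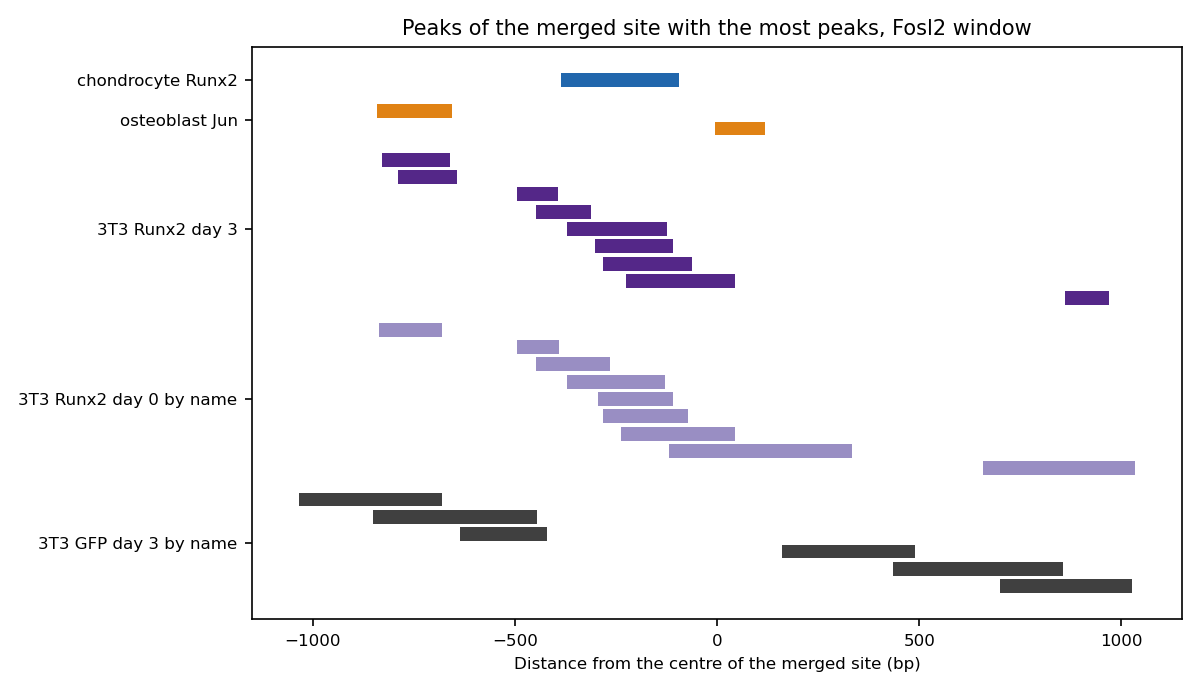
The 27 peaks of the site at Fosl2 as bars from start to end, by distance from the centre of the site in bp (horizontal axis) and grouped by list. Most of the 9 peaks of Runx2 day 3 and of the 9 of the list named for Runx2 day 0 lie left of the centre, and both lists also have a peak near the right end.

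Elsewhere at Fosl2 the primary Runx2 lists met without Jun. They shared 4 sites, chr5:32354127-32354583, chr5:32391951-32392156, chr5:32435343-32436287 and chr5:32442019-32442362, and 4 of the 5 osteoblast Runx2 peaks overlapped a chondrocyte peak. None of the 5 overlapped a Jun peak, against 4 of 7 at Fos, 3 of 4 at Jun and 2 of 6 at Junb. In the whole osteoblast Runx2 list 25.3% did, and the Fosl2 window held only 3 Jun peaks. The site chr5:32391951-32392156 had the 4 Runx2 lists and no other, and chr5:32435343-32436287 had them together with the list named for GFP day 3. The third Jun peak at Fosl2 was in chr5:32494133-32494765, with chondrocyte Runx2, Runx2 day 3 and the list named for Runx2 day 0. All 3 Jun peaks overlapped Runx2 day 3, against 38.0% of the whole Jun list, and 2 of the 3 lay in chr5:32437131-32439198.

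Foxa2 had 4 sites at Fosl2, 3 of them in no other list, as were 73.0% of Foxa2 sites in the genome. Its peaks at chr5:32391058-32391142, chr5:32461108-32461231 and chr5:32532205-32532308 overlapped no other list. The peak at chr5:32373286-32373385 was shared with chondrocyte Runx2.

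Over the 4 genes, 11 of 22 osteoblast Runx2 peaks overlapped a chondrocyte Runx2 peak (50.0%, 30.7 to 69.3%), with 45.2% in the whole list. Read from the other side, 11 of 30 chondrocyte peaks overlapped an osteoblast peak (36.7%, 21.9 to 54.5%), with 29.9% in the whole list. Both shares differed from those of the whole lists by less than their intervals. The overlap was uneven over the genes, with 4 of 5 osteoblast peaks at Fosl2, 4 of 6 at Junb, 1 of 4 at Jun and 2 of 7 at Fos.

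Osteoblast Runx2 overlapped Jun of the same cell type at 9 of 22 peaks (40.9%, 23.3 to 61.3%), against 25.3% of the whole list. Of the 52 Jun peaks, 9 overlapped osteoblast Runx2 (17.3%, 9.38 to 29.7%), against 17.6% of the whole Jun list. The Jun list was dense at these genes, yet the share of its peaks that met Runx2 was close to that of the whole list. Chondrocyte Runx2 overlapped Jun at 6 of 30 (20%, 9.51 to 37.3%), with 17.8% in the whole list. With centres within 250 bp as the criterion it was 33.3%, and without peaks that overlap a GFP list 10.0%. It overlapped Foxa2, from the same cell type, at 4 of 30 (13.3%, 5.31 to 29.7%), with 18.3% in the whole list. Of the Foxa2 peaks 4 of 16 overlapped chondrocyte Runx2 (25.0%, 10.2 to 49.5%), with 19.2% in the whole list.

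**Figure D5:**
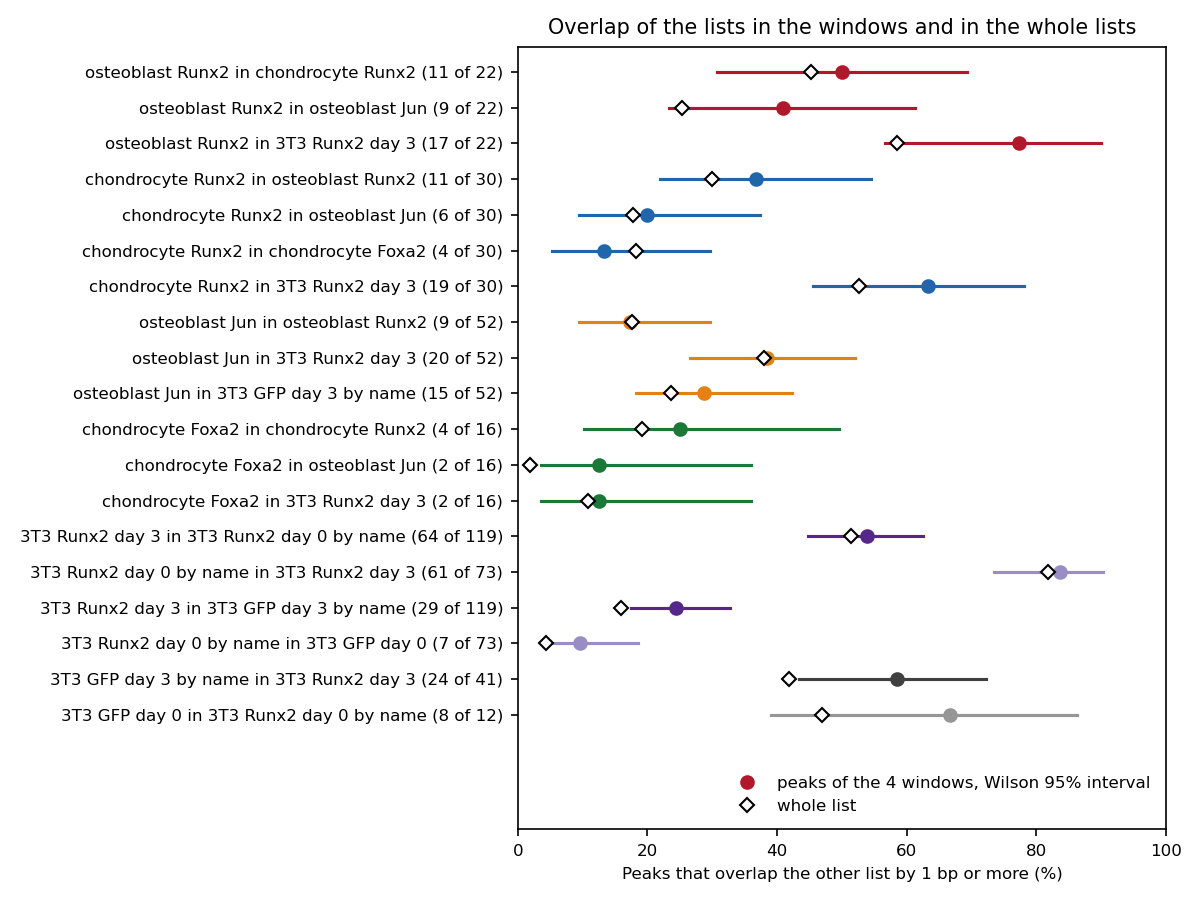
Share of peaks in % (horizontal axis) that overlap another list by 1 bp or more, for peaks of the 4 windows (circles with Wilson 95% intervals) and for the whole list (diamonds). In 15 of the 19 pairs the interval covers the share of the whole list, and in the other 4 the diamond lies to the left of it.

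Most Runx2 peaks of the primary cells recurred in 3T3 cells given Runx2. At these genes 17 of 22 osteoblast peaks overlapped Runx2 day 3 (77.3%, 56.6 to 89.9%), against 58.5% of the whole list. Of the chondrocyte peaks 19 of 30 did (63.3%, 45.5 to 78.1%), against 52.7%. Without peaks that overlap a GFP list, by list name, it was 8 of 13 osteoblast peaks (61.5%) and 10 of 20 chondrocyte peaks (50.0%). Jun peaks overlapped Runx2 day 3 at 20 of 52 (38.5%, 26.5 to 52.0%), against 38.0%, and Foxa2 peaks at 2 of 16 (12.5%, 3.50 to 36.0%), against 10.8%. All 4 of these intervals cover the share of the whole list. By gene, the osteoblast peaks that overlapped Runx2 day 3 were 4 of 4 at Jun, 6 of 7 at Fos, 4 of 6 at Junb and 3 of 5 at Fosl2, and the chondrocyte peaks 3 of 7 at Jun, 4 of 7 at Fos, 7 of 8 at Junb and 5 of 8 at Fosl2.

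Between the days, 64 of 119 peaks of Runx2 day 3 overlapped the list named for Runx2 day 0 (53.8%, 44.8 to 62.5%), with 51.4% in the whole list. Of the peaks of the list named for Runx2 day 0, 61 of 73 overlapped Runx2 day 3 (83.6%, 73.4 to 90.3%), with 81.8% in the whole list. By gene the day 3 peaks with a day 0 partner were 19 of 25 at Junb, 18 of 29 at Jun, 14 of 34 at Fosl2 and 13 of 31 at Fos. In sites, 51 of 99 with Runx2 day 3 lacked the list named for Runx2 day 0 (51.5%, 41.8 to 61.1%), against 50.5% in the genome, with 18 at Fos and 17 at Fosl2. The reverse held for 8 of 56 (14.3%, 7.42 to 25.7%), against 17.8%. With the crossed lists exchanged the shares of peaks were 24.4% for Runx2 day 3 and 58.5% for Runx2 day 0. The shares of sites were then 81 of 99 (81.8%, 73.1 to 88.2%), against 87.1%, and 11 of 29 (37.9%, 22.7 to 56.0%), against 55.6%. All 4 intervals for sites cover the share in the genome.

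By list name, the overlap of the Runx2 lists with the GFP lists was higher at these genes than in the whole lists. Of the Runx2 day 3 peaks, 29 of 119 overlapped the list named for GFP day 3 (24.4%, 18 to 33%), against 15.9% of the whole list. Of the peaks of the list named for Runx2 day 0, 7 of 73 overlapped GFP day 0 (9.59%, 4.72 to 18.5%), against 4.37%. From the side of the controls, 24 of 41 peaks of the list named for GFP day 3 overlapped Runx2 day 3 (58.5%, 43.4 to 72.2%), against 41.9%. Of the GFP day 0 peaks, 8 of 12 overlapped the list named for Runx2 day 0 (66.7%, 39.1 to 86.2%), against 47.0%. The first 3 of these intervals lie above the share of the whole list, and the last covers it.

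With the crossed lists exchanged, 53.8% of the Runx2 day 3 peaks overlapped GFP day 3 (44.8 to 62.5%), against 51.4% of the whole list. From the side of the controls it was then 83.6% of the GFP day 3 peaks (73.4 to 90.3%), against 81.8%. Both intervals cover the share of the whole list, so the higher overlap at day 3 depends on the labels. At day 0, 26.8% of the Runx2 peaks then overlapped GFP, and 66.7% of the GFP peaks overlapped Runx2. These day 0 shares were not compared with the whole lists. Jun peaks, which come from cells without the tag and were not precipitated through FLAG, overlapped the list named for GFP day 3 at 15 of 52 (28.8%, 18.3 to 42.3%), against 23.7% of the whole Jun list, and at 38.5% with the lists exchanged. At Junb 8 of 15 did, at Jun 3 of 10, at Fos 3 of 24 and at Fosl2 1 of 3. Junb, where both GFP lists had their highest counts, thus held 8 of these 15 Jun peaks.

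The peaks at these genes had about the widths of their lists. The median width for osteoblast Runx2 was 191 bp at these genes and 186 bp in the whole list, and for chondrocyte Runx2 147.5 bp at these genes and 136 bp in the whole list. Jun peaks had a median of 113.5 bp at these genes and 134 bp in the whole list, and Foxa2 peaks 121.5 bp at these genes and 120 bp in the whole list. For Runx2 day 3 it was 189 bp at these genes and 213 bp in the whole list, and for the list named for Runx2 day 0 it was 190 bp in both. The GFP list named for day 3 had 237 bp at these genes and 254 bp in the whole list, and GFP day 0 had 211 bp at these genes and 203 bp in the whole list. In the first 10% of the file stood 20 of the 119 peaks of Runx2 day 3 and 6 of the 52 of Jun, and between 1 and 8 of the peaks of each other list.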

How the data were processed

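Peak positions were used as the authors deposited them: each of 8 lists has 3 columns (chromosome, start and end) and nothing on peak strength. Per the submitters' processing notes, the data are on build mm9 and the tools included Bowtie and DiffBind, at steps not named. The peak caller, its threshold, its control, any pooling of the 2 primary Runx2 libraries, the order of the files and the read depth are not given in the sources used here. The 23 ATAC-seq, 7 input and 1 IgG libraries of the 41 samples were not analysed here.

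Coordinates are printed 1-based. The windows and the lists compared were chosen with earlier results of these data known. Peaks were assigned by their centre, and overlap meant at least 1 bp. Windows of each locus' length were tiled over a span of 2640 Mb of 21 chromosomes. Shares have Wilson 95% intervals and density ratios exact Poisson 95% intervals. No test was run. Regions named were, for each gene, up to 5 sites in the most lists, all sites with Foxa2, with GFP day 0, with osteoblast Runx2 and Jun, or with both primary Runx2 lists, the widest and the first peak of each list, and the longest empty stretch. The densest stretches and the shortest peaks were chosen after their values were seen.

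Counts of overlaps were compared with those of bedtools 2.31.1 for 56 pairs of lists, of which 0 differed, and tested on 20 simulated draws with planted overlaps, with 0 wrong. Python 3.11.15, NumPy 2.4.6, SciPy 1.17.1 and matplotlib 3.10.9 were used.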

Additional observations from a re-analysis of the deposited data

How the results depend on the processing

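No depth or score is given, and each group has 1 list. No paired analysis was possible because each group has 1 list, also where 2 libraries lie behind it, and for the same reason no replicate was left out. Windows around the other AP-1 genes were not run.

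Reducing each list to its wider 50% leaves fewer peaks and fewer possible partners. The counts were then 37 at Fos, 45 at Jun, 43 at Junb and 40 at Fosl2, and the density ratio of Runx2 day 3 was 4.86. The share overlapping chondrocyte Runx2 was 16.7% for osteoblast Runx2 and 0% for Foxa2. Osteoblast Runx2 overlapped Jun at 8.33% and Runx2 day 3 at 25.0%. Chondrocyte Runx2 overlapped osteoblast Runx2 at 12.5%, Foxa2 at 0% and Runx2 day 3 at 31.2%. Jun overlapped osteoblast Runx2 at 5.00% and Runx2 day 3 at 5.00%, and Foxa2 overlapped Runx2 day 3 at 0%. Runx2 day 3 overlapped the list named for Runx2 day 0 at 42.2%, with 45.9% from the other side. The list named for GFP day 3 overlapped Runx2 day 3 at 25.0%, and GFP day 0 overlapped the list named for Runx2 day 0 at 28.6%.

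In the central 50% of each window Fos had 63 peaks, and the density ratios were 15.7 for Jun, 9.34 for Runx2 day 3, 9.31 for the list named for Runx2 day 0, 9.08 for the list named for GFP day 3 and 26.5 for GFP day 0. With centres within 250 bp as the criterion, 53.8% of Jun peaks met Runx2 day 3. Without the Fos window, Jun overlapped the list named for GFP day 3 at 42.9%, and Foxa2 overlapped Jun at 0%, since both such peaks were at Fos. With the crossed lists exchanged, the pair of day 3 and day 0 gave 24.4% for Runx2 day 3 and 58.5% for Runx2 day 0. Runx2 day 3 overlapped GFP day 3 at 53.8%, with 83.6% from the other side, and Runx2 day 0 overlapped GFP day 0 at 26.8%. Without the GFP lists, 2 sites were in 5 or more of the remaining lists, which is a stricter criterion. Of the 32 counts per gene and list, 23 moved by over 1.5 times in the wider 50% of the lists, 9 in the central 50% of the windows, 6 with the crossed lists exchanged and 2 with overlapping peaks of a list merged. Except where the construction shows it, the cause of these changes was not tested. Other shares moved by over 1.5 times within their intervals. Chondrocyte Runx2 overlapped Jun at 33.3% with centres within 250 bp and at 10.0% without peaks that overlap a GFP list, and Foxa2 at 8.70% without the Jun window. Foxa2 overlapped chondrocyte Runx2 at 44.4% without Fos and 15.4% without Jun. It overlapped Runx2 day 3 at 18.8% with centres within 250 bp and at 6.25% to 7.14% when 50% had to overlap, without peaks that overlap GFP, or without Junb. Jun overlapped the list named for GFP day 3 at 18.9% without Junb, and the list named for Runx2 day 0 overlapped GFP day 0 at 5.41% in the wider 50%. Asking for 50% of the shorter peak to overlap left all 19 shares within their intervals, as did removing the peaks that overlap GFP day 0 (17 shares) or a GFP list (14 shares). The density ratios stayed within theirs in all 8 lists with the sex chromosomes left out, with overlapping peaks of a list merged and with the crossed lists exchanged.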

Other observations

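Very short peaks occur at these genes, chosen after their values were seen. The shortest was 7 bp, at chr8:87509745-87509751 in the list named for GFP day 3, and directly follows the Junb site of 6 lists at chr8:87509508-87509744. The shortest peak of the other lists in the windows was 12 bp for GFP day 0, 24 bp for the list named for Runx2 day 0, 26 bp for Jun, 29 bp for Runx2 day 3, 48 bp for Foxa2, 60 bp for chondrocyte Runx2 and 96 bp for osteoblast Runx2.

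The only class in which the primary Runx2 lists, both 3T3 Runx2 lists and Jun came together held 2 sites, 1 at Fos and 1 at Junb. All 4 Runx2 lists met at 7 sites, 3 at Junb, 2 at Fos, 2 at Fosl2 and 0 at Jun. Both counts go by list name, and neither was compared with the genome. The sites chr12:86758747-86759098, chr12:86814730-86815251 and chr5:32391951-32392156 had no peak of the list named for GFP day 3. They drop out with the crossed lists exchanged. Of the 40 sites with Runx2 of a primary cell type, 29 had Runx2 of 3T3 cells on at least 1 day (72.5%, 57.2 to 83.9%), against 57.1% in the genome: 8 of 12 at Fos, 7 of 9 at Jun, 8 of 10 at Junb and 6 of 9 at Fosl2. With the crossed lists exchanged it was 28 of 40 (interval 54.6 to 81.9%), against 55.3%, which this interval covers.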
